A study of Rattus norvegicus with 6 samples.

Results

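The genes described here are the BCL2 family, the caspases, the death receptor complex and their inhibitors, the genes through which a cell commits itself to apoptosis. They were taken by name, as the rows of the gene table whose symbol equals one of 40 listed symbols, and 37 of the 40 were found among 35291 genes. Mcl1, Hrk and Bbc3 had no row under these symbols and were not analysed here. The rule uses names alone, but the list was drawn up with earlier results of these data known.

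RNA-Seq was performed on whole testis of Sprague-Dawley rats, an outbred strain, 3 with streptozotocin-induced diabetes (DM) and 3 labelled Normal (Nor). By the study's methods the DM rats were fed a high-fat diet, received 1 injection of streptozotocin (35 mg/kg), a toxin of the insulin-producing cells of the pancreas, and were taken 8 weeks later. The control rats received citrate buffer, and the methods text does not say whether they had the same diet, so diet and streptozotocin cannot be told apart. Values are FPKM, fragments counted per length of transcript and size of library, a level per length used to compare genes and rats. They are relative to the library, so a comparison between rats also depends on how the libraries are scaled.

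Apoptosis can begin at the mitochondrion or at the cell surface. At the mitochondrion, BAX, BAK and BOK open the outer membrane, BCL2 and its relatives hold them back, and BH3-only proteins release that hold. Cytochrome c then joins APAF1 to switch on caspase 9, while SMAC, the product of Diablo, frees caspases from the inhibitor of apoptosis proteins. At the surface, Fas ligand binds Fas, and FADD recruits caspase 8 unless CFLAR blocks it. In the testis, apoptosis is known for the removal of surplus germ cells.

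None of the listed genes passed the test for a difference between DM and Nor testes after adjustment for all genes tested. Every DM rat lay on one side of every Nor rat for 5 of the 30 listed genes tested, close to the 13.0% of all genes tested. In DM testes Bcl2, a low gene at a mean of 0.653 FPKM, averaged 1.51 times the Nor mean. Casp1, Casp4, Aifm1 and Xiap were 0.833, 0.732, 0.849 and 0.926 times the Nor mean. None of the 5 had an unadjusted p-value below 0.05 from limma. Mdm2 was high in 1 DM rat and not in the other DM rats.

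The levels themselves differed far more between genes than between groups. Averaged over the 6 rats, 7 of the 37 genes reached 10 FPKM, 19 lay between 1 and 10 FPKM, 4 between 0.5 and 1 FPKM, and 7 below 0.5 FPKM, where the median of all genes tested was 4.60 FPKM. Diablo was the highest of the list, at a mean of 231.1 FPKM, above 98.7% of the genes tested. Bcl2l14, which encodes the BCL2 relative BCL-G, followed at a mean of 106.0 FPKM, above 96.1% of them. Mdm2, Birc2, Birc3, Bcl2l1 and Birc5 came next, at means of 52.1, 36.0, 24.8, 23.4 and 14.0 FPKM. The pore-forming genes were much lower, with means of 8.08 FPKM for Bok, 2.89 FPKM for Bak1 and 2.47 FPKM for Bax. Bcl2 itself, at a mean of 0.653 FPKM, stood above 4.93% of the genes tested, and its relative Bcl2l1, which encodes BCL-XL, was the leading survival gene.

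**Figure D1:**
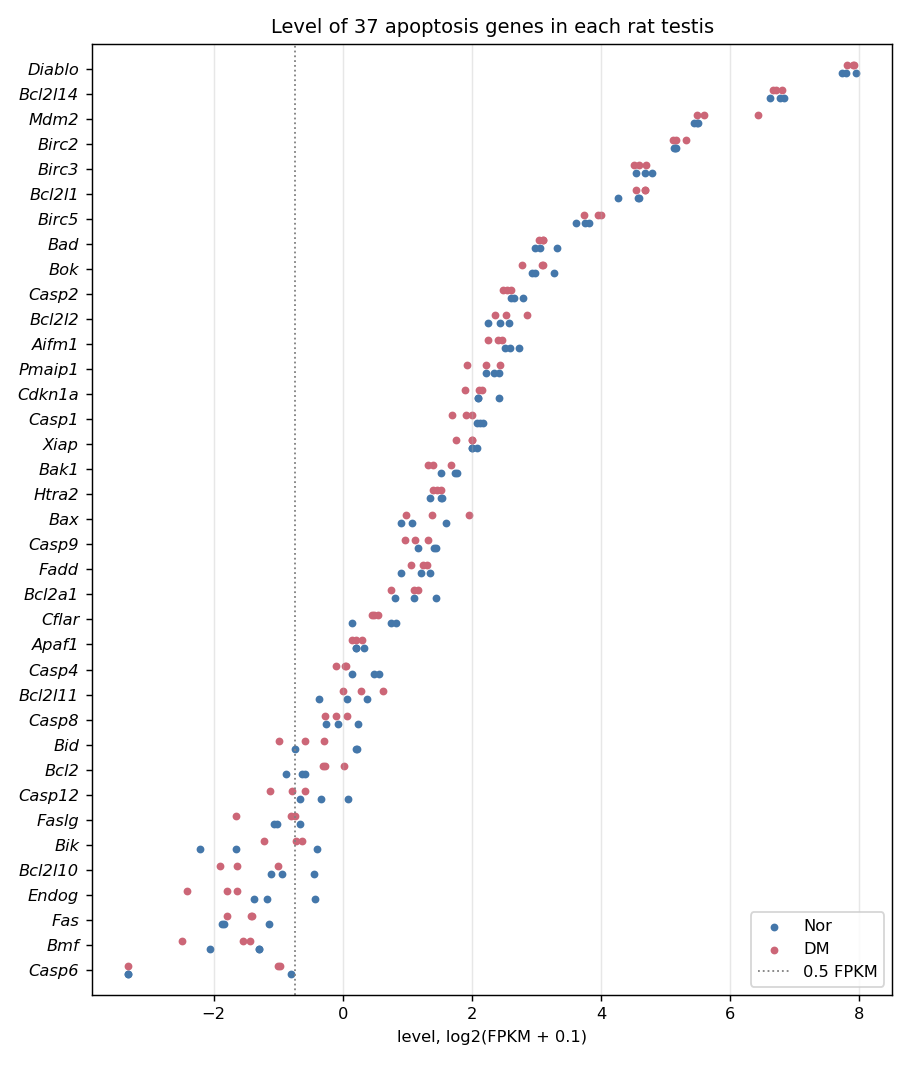
Level of each of the 37 genes in each rat, as log2(FPKM + 0.1) on the horizontal axis, with genes ordered by their mean over 6 rats, blue points for Nor and red points for DM rats. The dotted line marks 0.5 FPKM, and Diablo and Bcl2l14 lie at the top while 7 genes have means below the line.

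The genes at or above 10 FPKM are shown with a stretch of their promoters, because they were the highest of the list. RefSeq windows (assembly GRCr8) from 250 bases before to 50 bases after the start were matched by symbol for 28 of the 37 genes. The letters CCAAT, known as the CCAAT box, were searched on both strands. They occurred in 5 of the 6 windows of genes at 10 FPKM or more, and in 39.7% of the 4489 windows of all genes at that level. They occurred in 6 of the 22 windows of the lower genes, and in 36.6% of the 9099 windows of all genes below 10 FPKM. The motifs and the split at 10 FPKM were chosen after the levels were seen, and a match of letters is a description and no evidence of binding. In the stretches below, read 5′ to 3′ along the gene, capitals mark the box or its reverse complement. The windows of Diablo and Birc2 also held the reverse complement at other places, which are not printed.
Diablo, chr12:38716609-38716638, plus strand: ggtctgggattgCCAATgcgcagctccctg
Bcl2l14, chr4:168948857-168948886, plus strand: aatccaagtattCCAATgcagaacccagga
Mdm2, chr7:55200879-55200908, minus strand: cccccatcccctATTGGttcaggaggcggt
Birc2, chr8:13271656-13271685, minus strand: aaagccatgtctCCAATtgactcattctta
Birc5, chr10:103571921-103571950, plus strand: gccctgcgcctgCCAATcccggaaggccac
Bcl2l1 was the gene at this level whose window held no CCAAT box, and no window was matched for Birc3. The other motifs searched, also on both strands, were GGGCGG (the GC box), in 3 of the 6 and 15 of the 22 windows, against 61.3% and 49.1% of all windows at these levels, TGACGTCA (the full cAMP response element), in 0 of the 28 windows and 1.91% of the 27457 windows of all symbols, and 1 fixed sequence of the NF-kB site, in 1 window, that of Birc5, and 0.0947%.

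To be tested, a gene needed an average of 0.5 FPKM or more in the 6 libraries, which 30 of the 37 genes had, among 20338 genes in all. Differences were fitted by limma after a log2(FPKM + 0.1) transform, so that log2 fold changes, given as DM minus Nor, understate the change of low genes. Of the 30 genes, 0 had an adjusted p-value below 0.05, where 0.0344% of all genes tested had one. An unadjusted p-value below 0.05 from limma was also reached by 0 of the 30, against 7.46% of all genes tested. The study screened for a 2-fold difference either way together with an unadjusted p-value below 0.05, and this was met by 0 of the 30 and by 1.24% of all genes tested. The lowest adjusted p-value from limma was 0.695, for Casp1. DM and Nor rats were fully separate for 5 of the 30 genes, against 13.0% of all genes tested, 1 of them higher and 4 lower in DM rats, where 4.56% and 8.42% of all genes tested were separate in these directions. A share of 5 in 30 is close to that background.

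The median log2 fold change of the 30 genes was -0.068, and that of all genes tested was -0.021. Of the 30 genes, 20 were below 0, against 55.6% of all genes tested. The log2 fold change lay between -0.5 and 0.5 for 27 of the 30 genes, against 90.1% of all genes tested. For 27 genes the 95% interval from limma lay between -1 and 1, that is, within a 2-fold difference either way, which held for 80.9% of all genes tested. The exceptions were Bcl2, Bid and Casp12, which are all low, with means of 0.653, 0.718 and 0.598 FPKM over the 6 rats. A single gene in 3 rats against 3 cannot reach an exact permutation p-value below 0.1, and the labels number the replicates without describing them, so that p-values measure the spread between these samples.

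**Figure D2:**
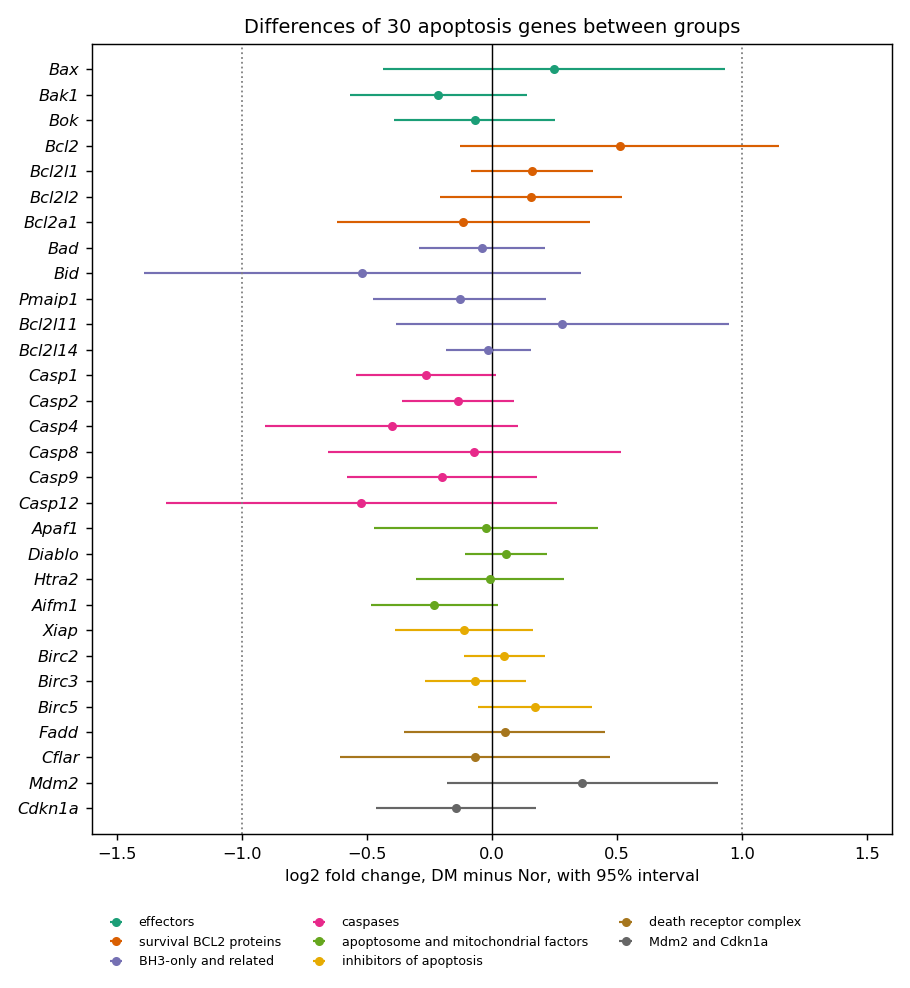
Log2 fold change (DM minus Nor, horizontal axis) with its 95% interval from limma for each of the 30 genes tested, coloured by role. The dotted lines mark a 2-fold difference either way; each interval crosses 0, and those of Bcl2, Bid and Casp12 reach past a dotted line.

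Among the pore-forming genes, Bax was at 1.86, 3.77 and 2.51 FPKM in the DM rats and at 1.76, 2.93 and 2.001 FPKM in the Nor rats. The groups overlapped, and the spread within each was wider than the difference between them. For Bax the log2 fold change came to 0.25 (standard error 0.29, limma adjusted p = 0.918), and its 95% interval ran from -0.44 to 0.93. Bak1, whose product sits on the mitochondrial outer membrane, was at 2.39, 3.10 and 2.52 FPKM in the DM rats and at 3.25, 3.30 and 2.77 FPKM in the Nor rats. Here 2 DM rats were below all Nor rats and the third lay among them (log2 fold change -0.22, 95% interval -0.57 to 0.14). Bok, the leading gene of this group, was at 6.72, 8.51 and 8.43 FPKM in the DM rats and at 7.75, 9.57 and 7.53 FPKM in the Nor rats, with groups that overlapped. Its log2 fold change was -0.070, with a 95% interval from -0.39 to 0.25.

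Of the survival genes, Bcl2 was the one with separate groups. It was at 0.713, 0.917 and 0.726 FPKM in the DM rats and at 0.548, 0.570 and 0.445 FPKM in the Nor rats. Every DM rat was above every Nor rat, with means of 0.785 ± 0.114 and 0.521 ± 0.0669 FPKM (SD, n = 3 each). On the log2 scale Bcl2 differed by 0.51 (standard error 0.27), and the 95% interval ran from -0.13 to 1.15. Its limma adjusted p-value was 0.758, and the exact permutation test gave p = 0.1, the smallest that 3 rats against 3 allow. The level was low in every rat. Without the mean-variance trend the unadjusted p-value of Bcl2 from limma was 0.00998 and the adjusted one 0.473.

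Bcl2l1 was at 25.4, 25.4 and 23.2 FPKM in the DM rats and at 23.6, 24.0 and 19.0 FPKM in the Nor rats. The groups overlapped, with the lowest value in a Nor rat. The log2 fold change was 0.16, with a 95% interval from -0.085 to 0.40. Bcl2l2, which encodes BCL-W and is required for spermatogenesis in mice, had a log2 fold change of 0.16, with rats between 4.66 and 7.11 FPKM. Bcl2a1 had a log2 fold change of -0.12, with rats between 1.58 and 2.63 FPKM. Bcl2l10 was below the minimum of 0.5 FPKM, at 0.169 to 0.401 FPKM in the DM rats and 0.364 to 0.633 FPKM in the Nor rats.

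The ratio of Bax to Bcl2 is often used as a measure of the balance between killing and survival genes. It was 2.61, 4.11 and 3.46 in the DM rats and 3.22, 5.14 and 4.50 in the Nor rats. The ranges overlapped, and the mean was 3.39 ± 0.752 in the DM and 4.29 ± 0.978 in the Nor rats (SD, n = 3 each). The order of the means was set by Bcl2, which was higher in each DM rat, since Bax was also higher on average.

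The BH3-only genes and Bcl2l14 gave 5 genes tested and none with separate groups. Bcl2l14 was at 110.9, 104.0 and 101.2 FPKM in the DM rats and at 113.6, 108.5 and 97.9 FPKM in the Nor rats. Its log2 fold change of -0.015 had a standard error of 0.072, so that the 95% interval, from -0.19 to 0.15, was among the narrowest of the 30; with median-ratio scaling the value was 0.0087, on the other side of 0. Bad, which neutralizes BCL-XL when it is not phosphorylated, had a log2 fold change of -0.040 with rats between 7.80 and 9.89 FPKM. Pmaip1, which encodes NOXA, had one of -0.13 with rats between 3.71 and 5.29 FPKM. Bcl2l11, which encodes BIM, had one of 0.28 with rats between 0.672 and 1.43 FPKM. Bid, the link from caspase 8 to the mitochondrion, was at 0.717, 0.569 and 0.402 FPKM in the DM rats and at 1.07, 1.05 and 0.498 FPKM in the Nor rats. The groups of Bid overlapped through a Nor rat at 0.498 FPKM, and the 95% interval of the log2 fold change (-0.52) was the widest of the 30 genes tested, from -1.39 to 0.36. Bik and Bmf were below the minimum, with rats between 0.116 and 0.659 FPKM for Bik and between 0.0777 and 0.309 FPKM for Bmf.

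All 6 caspases tested had a log2 fold change below 0, where 55.6% of all genes tested did, and their median was -0.23. None of the 6 had an unadjusted p-value below 0.05 from limma. Casp1, the caspase that matures interleukin 1 beta in inflammasomes, was at 3.64, 3.14 and 3.90 FPKM in the DM rats and at 4.14, 4.28 and 4.41 FPKM in the Nor rats. Every DM rat was below every Nor rat (log2 fold change -0.26, standard error 0.12, 95% interval -0.54 to 0.017, adjusted p = 0.695 from limma). Casp4, an inflammatory caspase that senses bacterial lipopolysaccharide, was at 0.831, 0.938 and 0.925 FPKM in the DM rats and at 1.38, 1.30 and 1.003 FPKM in the Nor rats. Its groups were also separate, with a log2 fold change of -0.40 and a 95% interval from -0.91 to 0.10. Casp12, a caspase of the same cluster, had a log2 fold change of -0.52 with overlapping groups, at 0.359 to 0.568 FPKM in the DM rats and 0.530 to 0.955 FPKM in the Nor rats. Reads shared by these related genes could have been split between them.

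The caspases that start apoptosis had overlapping groups. Casp9 was at 2.41, 2.08 and 1.85 FPKM in the DM rats and at 2.14, 2.61 and 2.57 FPKM in the Nor rats, with a log2 fold change of -0.20 (95% interval -0.58 to 0.18). Casp8 was at 0.725, 0.947 and 0.830 FPKM in the DM rats and at 0.733, 0.851 and 1.08 FPKM in the Nor rats, with a log2 fold change of -0.072 (95% interval -0.66 to 0.51). For Casp8 the DM rats lay almost within the Nor range. Casp2, the highest of the caspases, was at 5.73, 5.98 and 5.51 FPKM in the DM rats and at 6.83, 6.17 and 5.97 FPKM in the Nor rats, and the groups touched at 5.98 and 5.97 FPKM (log2 fold change -0.14). Casp6, an executioner, was listed at 0 in 1 DM rat and 2 Nor rats and stayed at or below 0.477 FPKM in the others. Summed over the 7 caspases, the rats were between 13.6 and 14.2 FPKM in DM and between 15.8 and 16.2 FPKM in Nor, so the sums did not overlap. This sum includes the inflammatory caspases Casp1 and Casp4, while each of the other caspases had overlapping groups. It was formed after the caspase values were seen and was not tested.

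White blood cell markers are set beside Casp1 and Casp4, which macrophages are known to use in inflammation. The summed level of 5 macrophage genes was 10.6 to 11.8 FPKM in the DM and 14.6 to 19.5 FPKM in the Nor rats, and 3 of the 5 had an unadjusted p-value below 0.05 from limma, each lower in DM, against 4.99% of all genes tested. The summed level of 5 lymphocyte genes was 2.49 to 3.26 FPKM in the DM and 3.79 to 4.58 FPKM in the Nor rats, with 2 of the 4 genes tested below 0.05, both lower in DM. None of these markers passed adjustment, and Cd163, Adgre1 and Cd3g had overlapping groups. None of these 10 genes was listed at 0 in any rat. Their part in the values of Casp1 and Casp4 was not tested. In whole tissue, fewer cells of a type and less RNA per cell cannot be told apart.

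**Figure D3:**
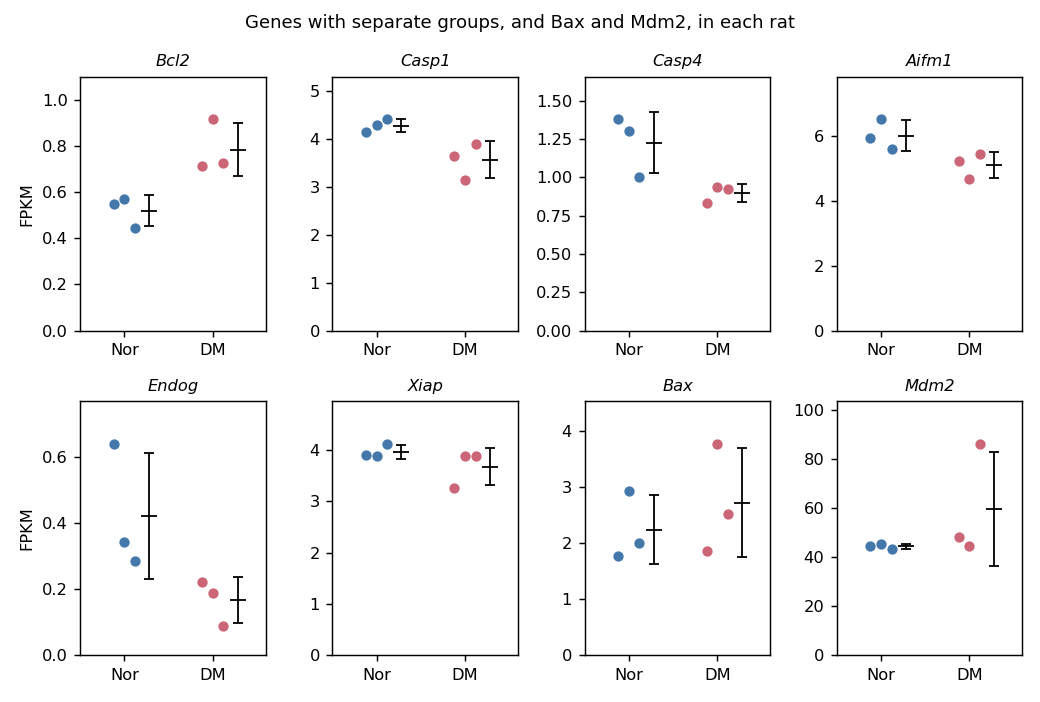
FPKM (vertical axes from 0) in each Nor (blue) and DM (red) rat for the 6 genes whose groups did not overlap and for Bax and Mdm2, with the mean and SD (n = 3) in black beside the points. Bcl2 is higher in each DM rat, Casp1, Casp4, Aifm1, Endog and Xiap are lower in each, and Mdm2 is set apart by 1 DM rat at 86.4 FPKM. Endog was below the minimum for testing. The other 5 were among the 30 genes tested, where 13.0% of all genes tested had separate groups.

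Of the factors that act beside the mitochondrion, Diablo was at 241.6, 239.8 and 224.8 FPKM in the DM rats and at 221.1, 246.6 and 212.8 FPKM in the Nor rats. The groups overlapped, and the 95% interval of the log2 fold change (0.056) ran from -0.11 to 0.22. Apaf1, the scaffold of the apoptosome, was at 1.13, 1.002 and 1.06 FPKM in the DM rats and at 1.05, 1.05 and 1.15 FPKM in the Nor rats, a log2 fold change of -0.025. Htra2, a mitochondrial protease that also binds inhibitors of apoptosis, had a log2 fold change of -0.0092, which became 0.014 with median-ratio scaling, and its rats lay between 2.45 and 2.79 FPKM.

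Aifm1, which encodes the apoptosis-inducing factor needed for the respiratory chain in living cells, was at 5.21, 4.66 and 5.43 FPKM in the DM rats and at 5.93, 6.50 and 5.58 FPKM in the Nor rats. Every DM rat was below every Nor rat, at a log2 fold change of -0.23 (standard error 0.11, 95% interval -0.49 to 0.022, limma adjusted p = 0.712). Endog, a mitochondrial nuclease, was below the minimum for testing. It was at 0.222, 0.189 and 0.0874 FPKM in the DM rats and at 0.640, 0.342 and 0.285 FPKM in the Nor rats, again with separate groups. When no minimum was set, its log2 fold change was -0.95 with an unadjusted p-value from limma of 0.0410 and an adjusted one of 0.736, and it was the only one of the 37 genes with an unadjusted p-value below 0.05, where 6.64% of the 30782 genes in that fit had one.

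Among the inhibitors of apoptosis, Birc2 and Birc3, which encode cIAP1 and cIAP2, were the highest. Birc2 was at 34.5, 35.7 and 39.7 FPKM in the DM rats and at 35.02, 35.4 and 35.7 FPKM in the Nor rats, a log2 fold change of 0.049. Birc3 was at 25.9, 22.8 and 24.0 FPKM in the DM rats and at 27.5, 25.5 and 23.2 FPKM in the Nor rats, a log2 fold change of -0.067. For these paralogs the 95% intervals ran from -0.11 to 0.21 and from -0.27 to 0.13, and reads shared by them could have been assigned to either. Birc5, which encodes survivin, a protein of dividing cells, had a log2 fold change of 0.17 with overlapping groups, at 13.3 to 15.9 FPKM in the DM rats and 12.1 to 14.0 FPKM in the Nor rats. Xiap, the direct inhibitor of caspases, was at 3.26, 3.88 and 3.88 FPKM in the DM rats and at 3.90, 3.89 and 4.13 FPKM in the Nor rats. Its groups were separate only in the third decimal, and the log2 fold change was -0.11 (95% interval -0.39 to 0.16).

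The death receptor genes were low in these testes. Fas was at 0.188, 0.277 and 0.273 FPKM in the DM rats and at 0.178, 0.355 and 0.173 FPKM in the Nor rats. Faslg, its ligand, was at 0.497, 0.219 and 0.476 FPKM in the DM rats and at 0.376, 0.396 and 0.529 FPKM in the Nor rats. Both genes were below the minimum for testing, and their groups overlapped. Fadd was at 2.37, 2.28 and 1.98 FPKM in the DM rats and at 2.45, 2.21 and 1.76 FPKM in the Nor rats, a log2 fold change of 0.051 (95% interval -0.35 to 0.45). Cflar, the brake on caspase 8, had a log2 fold change of -0.069, with DM rats between 1.27 and 1.36 FPKM inside the Nor range of 1.0004 to 1.66 FPKM.

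Mdm2, which encodes a ubiquitin ligase, was at 48.1, 44.7 and 86.4 FPKM in the DM rats and at 44.4, 45.3 and 43.5 FPKM in the Nor rats. The third DM rat stood apart and the other 5 rats lay between 43.5 and 48.1 FPKM. The log2 fold change of 0.36 (95% interval -0.18 to 0.90) therefore rested on 1 rat, and it was 0.062 without DM replicate 3. Cdkn1a, which encodes the cell cycle inhibitor p21, was not high in that rat. It was at 4.23, 3.63 and 4.36 FPKM in the DM rats and at 4.16, 5.23 and 4.19 FPKM in the Nor rats, a log2 fold change of -0.14 with overlapping groups.

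Other genes of the pathway were taken from a list of 42, of which 40 were in the table and 31 reached the minimum. Of the 31, 0 had an adjusted p-value below 0.05 from limma and 3 an unadjusted one, all lower in the DM rats, against 4.99% of all genes tested that were lower at that threshold. The 3 were both TNF receptors and Vdac1. The median log2 fold change of the 31 was -0.023, where that of all genes tested was -0.021. Tnfrsf1a, the TNF receptor that carries a death domain, was at 1.48, 0.895 and 1.17 FPKM in the DM rats and at 2.09, 2.19 and 1.75 FPKM in the Nor rats. Its log2 fold change came to -0.74 (standard error 0.22, limma unadjusted p = 0.0120, adjusted p = 0.519). Tnfrsf1b, the TNF receptor of immune cells, was at 0.535, 0.668 and 0.560 FPKM in the DM rats and at 1.13, 1.57 and 0.767 FPKM in the Nor rats, a log2 fold change of -0.82 (limma adjusted p = 0.629). Tnfrsf10b, a receptor of the death ligand TRAIL, had the highest log2 fold change of the pathway list, 0.58 (95% interval -0.048 to 1.204, limma unadjusted p = 0.0655), at 1.96, 3.18 and 2.11 FPKM in the DM rats and at 1.32, 2.15 and 1.30 FPKM in the Nor rats, with overlapping groups. All DM rats were below all Nor rats for both TNF receptors, as they were for the macrophage marker sum, whose part in these values was not tested.

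Vdac1, a channel of the outer mitochondrial membrane, was at 10.3, 8.96 and 11.9 FPKM in the DM rats and at 12.1, 13.6 and 13.0 FPKM in the Nor rats, a log2 fold change of -0.32 (limma adjusted p = 0.627). Its relatives Vdac2 and Vdac3 were far higher, with means of 285.7 and 470.8 FPKM over the 6 rats, and had log2 fold changes of 0.011 and -0.042. In all, 6 of the 31 genes had separate groups, each lower in DM, against 8.42% of all genes tested. Besides the 3 above these were Dffb, Ripk1 and Phlda3. Dffb, the nuclease that cuts DNA between nucleosomes, was at 0.365, 0.556 and 0.364 FPKM in the DM rats and at 0.625, 0.705 and 0.688 FPKM in the Nor rats (log2 fold change -0.57, 95% interval -1.29 to 0.15). Ripk1, a kinase below the TNF receptors, was at 2.61, 2.65 and 2.35 FPKM in the DM rats and at 2.75, 2.91 and 2.89 FPKM in the Nor rats (log2 fold change -0.16). Phlda3, which encodes an inhibitor of AKT, was at 0.511, 0.543 and 0.480 FPKM in the DM rats and at 0.593, 0.728 and 0.695 FPKM in the Nor rats (log2 fold change -0.33). Ripk3, a kinase of necroptosis, also had separate groups, at 0.0856 to 0.125 FPKM in the DM and 0.157 to 0.332 FPKM in the Nor rats, below the minimum for testing.

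Cycs, which encodes somatic cytochrome c, had a log2 fold change of 0.37 with overlapping groups. Parp1, a sensor of DNA breaks, was between 24.4 and 26.8 FPKM in the 6 rats.

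**Figure D4:**
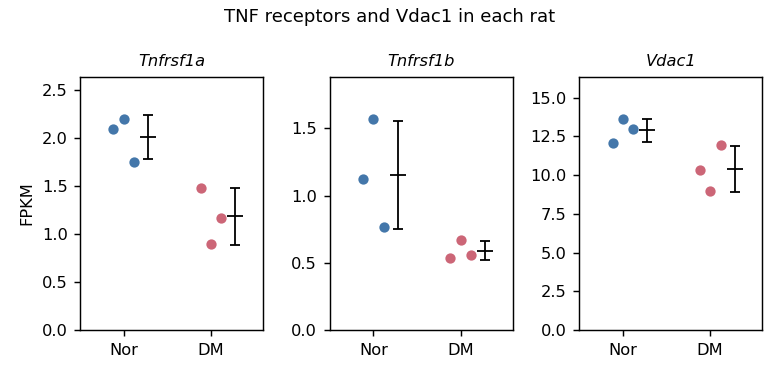
FPKM (vertical axes from 0) in each Nor (blue) and DM (red) rat for Tnfrsf1a, Tnfrsf1b and Vdac1, with the mean and SD (n = 3) in black. Each DM rat lies below each Nor rat in all 3 panels.

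By histology, the study reported strongly reduced spermatogenesis in all its DM testes. By TUNEL staining it reported more apoptotic sperm and somatic cells, Leydig cells above all. Germ cell markers are therefore set beside the apoptosis genes, which here give RNA of whole testis and no count of dying cells. The study does not say whether the stained testes came from the sequenced rats. The summed level of 8 markers of elongating spermatids, among them Prm1 and Odf1, was 14995 to 16382 FPKM in the DM and 14281 to 16603 FPKM in the Nor rats. That of 6 round spermatid markers was 610.5 to 720.9 and 589.8 to 726.9 FPKM, and that of 8 spermatocyte markers 436.7 to 485.3 and 439.2 to 482.5 FPKM. That of 8 spermatogonial markers was 70.2 to 81.7 and 67.0 to 70.9 FPKM. Each of these 4 sums overlapped between the groups. Of the leading genes of these lists, Uchl1 had a log2 fold change of 0.34, and Id4, Sycp3, Piwil1, Tssk2, Acrv1, Prm1 and Odf1 lay between -0.083 and 0.12. Uchl1, at a mean of 42.4 FPKM over the 6 rats, led the spermatogonial sum. Of the 8 spermatogonial markers, 6 had a log2 fold change below 0, against 55.6% of all genes tested, and their median was -0.17. Of the 30 germ cell markers, all were tested and 3 had an unadjusted p-value below 0.05 from limma, Uchl1 and Ccna1 higher and Kit lower in DM, a share near the 7.46% of all genes tested. Leydig cell markers were lower, with a sum of 27.3 to 57.3 FPKM in the DM and 84.5 to 117.2 FPKM in the Nor rats. All 6 had an unadjusted p-value below 0.05 from limma. Cyp17a1, an enzyme of androgen synthesis, fell with an adjusted p-value of 0.0415 from limma, from 28.9 ± 6.30 FPKM in the Nor to 9.36 ± 0.448 FPKM in the DM rats (SD, n = 3 each), and Star had a log2 fold change of -1.24. Without Nor replicate 3, limma gave 0 genes of the whole table, Cyp17a1 included, an adjusted p-value below 0.05 and 1502 an unadjusted one. The sums of Sertoli, peritubular and endothelial cell markers overlapped between the groups, and none of their genes had an unadjusted p-value below 0.05. No Leydig or germ cell marker was listed at 0. FPKM are relative to the library and give neither the number of cells nor the RNA per testis.

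**Figure D5:**
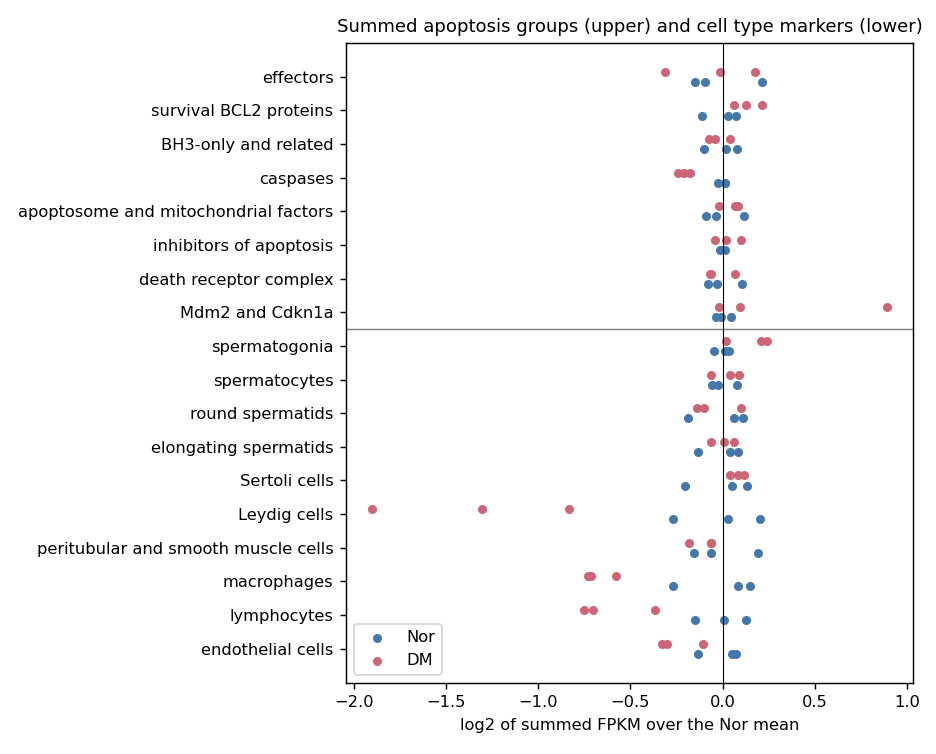
Log2 of the summed FPKM of each apoptosis group (upper 8 lines) and each cell type marker list (lower 10 lines) in each rat, relative to the mean of the Nor rats, with Nor in blue and DM in red. The germ cell sums overlap between groups, the Leydig, macrophage and lymphocyte sums do not, and of the 8 apoptosis groups only the caspase sum is separate. That sum includes the inflammatory caspases Casp1 and Casp4, the only caspases whose own groups were separate. It was formed after the caspase values were seen and was not tested.

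Depth in reads is unknown, since the files hold no counts. Column totals were between 453304 and 478211 FPKM, and the relative depths read from low genes were 0.966 to 1.09 in the DM and 0.893 to 1.02 in the Nor rats, against a mean of 1 over the 6. Correlations of log2 values across genes, which are not independent replicates, were 0.958 to 0.965 within groups and 0.957 to 0.966 between groups.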

How the data were processed

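Testis RNA of 3 DM and 3 Nor rats was analysed. Reads had passed FastQC, a BWA comparison against rRNA, STAR alignment and StringTie assembly, in the authors' hands. Per gene, the authors deposited FPKM. The genome build, the annotation and the tool versions are not given in the sources used here. The labels name circRNA, lncRNA and mRNA and do not say which poly(A) fraction was sequenced. The authors screened with DESeq2, which needs counts that are not used here. Values were transformed to log2(FPKM + 0.1) and genes averaging 0.5 FPKM or more were compared with limma 3.58.1 (lmFit, eBayes with trend, two-sided) in R 4.3.3, with Benjamini-Hochberg adjustment over 20338 genes. Exact permutation tests of single genes (scipy 1.17.1, Python 3.11.15) were two-sided. The fit was also run on simulated data with changes larger than those of any listed gene. That run therefore does not show how well differences of their size are found. Relative depth came from the commonest ratio between samples among genes below 1 FPKM.

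The genes, the pathway list and the marker lists were chosen with earlier results of these data known. Some genes of the pathway are not reported here and were left out of its counts after the values were seen. Values per rat are given for genes with an unadjusted p-value below 0.05 or separate groups, for the highest gene of each role, and for Bax, Bcl2, Fas, Faslg, Fadd, Casp8, Casp9, Apaf1, Mdm2 and Cdkn1a; other genes given per rat, and Cycs, Parp1, Vdac2 and Vdac3, were added after the values were seen. The table held 0 sample columns that could not be mapped. Promoter windows came from RefSeq, and where windows of opposite strands overlapped, 1989 of 1989 were reverse complements. Fits were repeated with pseudocounts of 1 and 0.01, no minimum, a minimum of 1 FPKM, median-ratio scaling, TPM, eBayes without trend, protein-coding genes only, summed symbols, a replicate block and each rat left out.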

Additional observations from a re-analysis of the deposited data

How the results depend on the processing

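No listed gene reached an adjusted p-value below 0.05 from limma in the 6 fits that left out 1 rat or in the 10 other alternatives, the lowest being 0.473. The number with an unadjusted p-value below 0.05, which was 0, became 1 of 37 with no minimum (Endog), 2 for protein-coding genes only (Bcl2 and Casp1) and 3 without the trend (Bcl2, Casp1 and Casp4), where 6.64%, 8.89% and 7.91% of all genes in these fits had one, and the cause was not tested. With each rat left out it was 0 to 1 (Bid without Nor replicate 3, Casp1 without DM replicate 3, Birc5 without DM replicate 2), the number of genes with separate groups was 7 to 9 in place of 5, since fewer rats separate more easily, the number of intervals within a 2-fold difference was 24 to 25, and the median log2 fold change was -0.082 to -0.033. The number of pathway genes with an unadjusted p-value below 0.05 was 2 to 3 with each rat left out, 5 without the trend and 5 for protein-coding genes only, in place of 3, and the cause was not tested; these alternatives were chosen after seeing the data. The difference in the log2 of the Bax to Bcl2 ratio was -0.53 to -0.16 in place of -0.33.

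The log2 fold changes of Bcl2l14 and Htra2 became 0.0087 and 0.014 with median-ratio scaling, under which the median of all genes was 0.0027 in place of -0.021. With 1 rat left out, 12 of the 30 genes changed sign. The ranges were -0.011 to 0.48 for Bax, -0.13 to 0.040 for Bok, -0.27 to 0.050 for Bcl2a1, -0.11 to 0.059 for Bad, -0.25 to 0.0017 for Pmaip1, -0.076 to 0.032 for Bcl2l14, -0.19 to 0.063 for Casp8, -0.066 to 0.016 for Apaf1, -0.070 to 0.022 for Htra2, -0.010 to 0.091 for Birc2, -0.076 to 0.15 for Fadd and -0.28 to 0.057 for Cflar. Without a change of sign, Bid went from -0.52 to -0.84 without Nor replicate 3 (limma unadjusted p = 0.0427), Bcl2l1 from 0.16 to 0.050 and Bcl2l11 from 0.28 to 0.084 without that rat, and Bcl2l2 from 0.16 to 0.019 without DM replicate 2.

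Same-numbered rats are different animals, so the numbers were not taken as pairing. The correlations of their deviations from the group means were 0.106, 0.0153 and 0.0979. Between DM and Nor rats with different numbers these correlations ran from -0.126 to 0.0318. The labels do not say whether same-numbered rats were processed together. With the replicate number as a block, 0 listed genes had an unadjusted or an adjusted p-value below 0.05, 26 intervals lay within a 2-fold difference, and 5 pathway genes had an unadjusted p-value below 0.05, as did 8.12% of all genes tested. Depth in reads is unknown, which limits what can be said of the 7 genes below 0.5 FPKM.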
